A study of Mus musculus with 28 samples.

Results

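The 7 genes that encode the subunits of AMP-activated protein kinase (AMPK) were followed in the striatum of mice with and without a chromosome segment from the A/J strain. They are Prkaa1, Prkaa2, Prkab1, Prkab2, Prkag1, Prkag2 and Prkag3. Each was chosen by its symbol in the array's annotation and is measured by 1 transcript cluster, a group of probes summarised together, so they make 7 of the 19938 genes with a value of their own. The family was picked with results of these data known, and Prkag1 is taken here to be the 1 member that stood out. In the authors' deposited table its p for 14 congenic against 14 B6 arrays was 3.85e-06, rank 11 of 35556 clusters by smallest p. Which value led to the choice is not stated, and this p is treated throughout as the one by which Prkag1 was picked. The difference of Prkag1 between carriers of the segment and B6 mice is therefore given as a description that supports nothing further. The other 6 members came in by family and not by value, with deposited p-values between 0.402 and 0.915 in the authors' deposited table.

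The study compared B6.A/J congenic mice, which carry A/J chromosome 11 from 84 to 96 Mb on a C57BL/6J (B6) background, with B6 mice in a series of 28 arrays, 1 per mouse. Punches of the left and right striatum were pooled for each animal, and all mice were drug-naive. Batch 1 held 6 heterozygous congenic mice and 6 B6 mice called their littermates, all aged 41 to 68 days, with 3 females and 3 males in each group. Batch 2 held 8 homozygous congenic mice aged 52 to 57 days and 8 B6 controls aged 61 to 63 days, with 4 of each sex in each group. The homozygous mice and their controls were not littermates, so genotype, age and breeding cannot be told apart in batch 2. The chromosome of the segment is not in the study's design text and comes from knowledge of the study. By RefSeq gene positions Prkaa1 and Prkag1 are on chromosome 15, Prkaa2 on chromosome 4, Prkab1 and Prkag2 on chromosome 5, Prkab2 on chromosome 3 and Prkag3 on chromosome 1, so no member lies on the chromosome that carries the A/J segment.

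AMPK is a kinase of 3 subunits that senses the energy state of the cell. An alpha subunit carries the catalytic domain, a beta subunit holds the complex together and binds glycogen, and a gamma subunit binds AMP, ADP or ATP, so that the kinase is switched on when ATP runs low. Once active it restrains the synthesis of fatty acids, sterols and protein and favours glucose uptake, fat oxidation and autophagy; in neurons it is also activated through calcium by Camkk2. The arrays measure RNA and carry no information on the assembly or phosphorylation of the kinase.

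All values are log2 RMA values as deposited, and a difference of 1 would be a doubling of signal on the array. The median of an array lay between 7.47 and 7.54. The mean of 12 spiny projection neuron genes, which mark the main cell type of the striatum, lay between 10.94 and 11.57 in all 28 arrays, with the lowest value in B6 control 1. Liver transcripts varied among the batch 2 arrays: the mean of 18 hepatocyte genes ran from 7.01 to 11.19 in B6 controls and from 7.49 to 10.06 in homozygous mice, against 8.25 to 8.61 over both batch 1 groups. The authors had aligned the batches with ComBat, which sets the batch means of a gene to each other. The level of liver transcripts therefore cannot be compared between batches. B6 control 1 was the array at 11.19, and the subunit and pathway results that it moved most are given with and without it.

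Prkag1, which encodes the gamma 1 subunit, the nucleotide-binding subunit found in most tissues, had lower values in the mice with the A/J segment. Each of the 14 carriers was below the B6 mean of its own batch, a pattern shared by 22 of the 19938 genes (0.110%). Prkag1 was picked by its p on these same arrays, so this count describes the choice and is no further evidence. The carriers were lower by 0.08 on the log2 scale (SE 0.0190), which is 5.53% less signal, with 95% limits of -0.121 and -0.043. None of the 6 other subunit genes had all 14 carriers on one side. By limma no subunit gene, Prkag1 included, was called in any comparison at an adjusted p under 0.05 over all genes. For carriers Prkag1 had a limma adjusted p of 0.352.

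The catalytic alpha subunits are encoded by Prkaa1 (alpha 1) and Prkaa2 (alpha 2, the isoform also prominent in skeletal and heart muscle). Prkaa1 had a lowest, median and highest value of 9.72, 9.78 and 9.89 in the 6 littermates, and of 9.67, 9.74 and 9.88 in the 6 heterozygous mice. In batch 2 these were 9.50, 9.75 and 9.90 in the 8 B6 controls and 9.65, 9.75 and 9.86 in the 8 homozygous mice. The groups of each batch overlapped over most of their range, and the lowest of all 28 values was that of B6 control 1. Heterozygous mice differed from littermates by -0.05 (SE 0.051, limma adjusted p = 1.00) and homozygous mice from controls by -0.01 (SE 0.044, limma adjusted p = 0.984). Over both batches the difference was -0.02 (SE 0.033, limma adjusted p = 0.979), with 10 of 14 carriers below the B6 mean of their batch. Without B6 control 1 it was -0.04 (limma adjusted p = 0.827).

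Prkaa2 varied more than any other member within groups. Its lowest, median and highest values were 9.17, 9.33 and 9.48 in littermates, 9.06, 9.32 and 9.35 in heterozygous mice, 9.14, 9.32 and 9.44 in B6 controls and 8.96, 9.34 and 9.46 in homozygous mice. The medians of the 4 groups lie close together, and 2 single carriers, heterozygous congenic 3 at 9.06 and homozygous congenic 3 at 8.96, are below every B6 mouse. The carriers differed from B6 by -0.03 (SE 0.049, limma adjusted p = 0.986), with 7 of 14 below the B6 mean of their batch. The 95% interval ran from -0.126 to 0.074, the widest interval among the 7 members for this comparison.

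**Figure D1:**
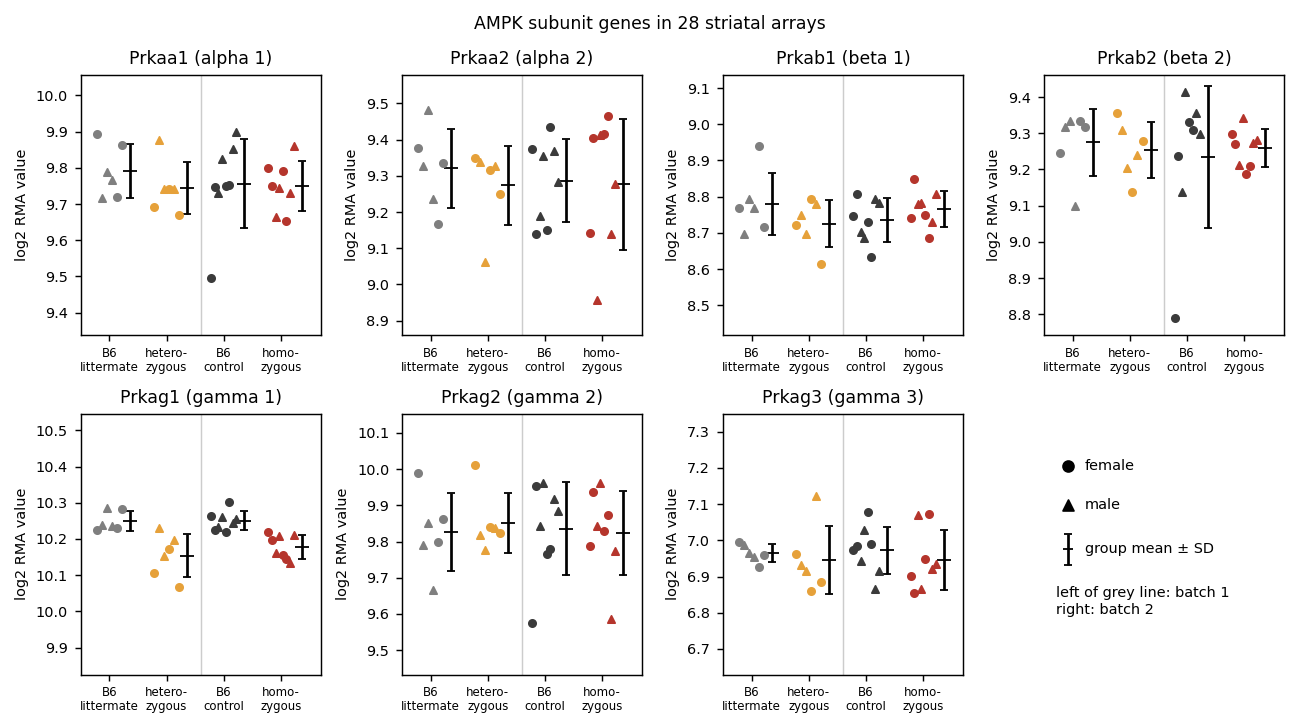
The log2 RMA value of each AMPK subunit gene on each array, by group, with females as circles, males as triangles and the group mean ± SD beside the points; each panel spans the same number of log2 units. The Prkag1 points are the tightest, with the heterozygous (10.07 to 10.23) and homozygous (10.13 to 10.22) mice mostly under the B6 mice of their batch (10.22 to 10.29 and 10.22 to 10.30), while the low point of the B6 controls in the Prkaa1, Prkab2 and Prkag2 panels is B6 control 1.

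The beta subunits hold alpha and gamma together and carry the glycogen-binding domain. Prkab1, which encodes beta 1, had lowest, median and highest values of 8.70, 8.77 and 8.94 in littermates, 8.61, 8.74 and 8.79 in heterozygous mice, 8.63, 8.74 and 8.81 in B6 controls and 8.69, 8.76 and 8.85 in homozygous mice. The groups overlapped in both batches, and the difference had opposite signs in them. It was -0.05 in heterozygous mice (SE 0.041, limma adjusted p = 1.00) and 0.03 in homozygous mice (SE 0.036, limma adjusted p = 0.899). The difference between these effects, 0.09 (SE 0.055, limma adjusted p = 0.999), was the largest among the 7 members and did not pass the test. Prkab1 had the second smallest spread within groups after Prkag1, an SD of 0.0662 after group means and sex were removed.

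Prkab2, which encodes beta 2, had 1 array far below the others. Its lowest, median and highest values were 9.10, 9.32 and 9.34 in littermates, 9.14, 9.26 and 9.36 in heterozygous mice, 8.79, 9.30 and 9.41 in B6 controls and 9.19, 9.27 and 9.34 in homozygous mice. The value of 8.79 belonged to B6 control 1, and the other 7 controls lay between 9.14 and 9.41. With that array the carriers differed from B6 by 0.01 (SE 0.045, limma adjusted p = 0.996), and without it by -0.03 (SE 0.031, limma adjusted p = 0.896). Leaving out any of 5 arrays, B6 control 1 among them, turned the sign of this small difference. The SD within groups went from 0.124 to 0.0792 when the array was left out.

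The gamma subunits bind the adenine nucleotides. For Prkag1 the 6 littermates had a lowest, median and highest value of 10.22, 10.24 and 10.29, and the 6 heterozygous mice of 10.07, 10.16 and 10.23. The 8 B6 controls had 10.22, 10.25 and 10.30, and the 8 homozygous mice 10.13, 10.18 and 10.22. Of the heterozygous mice 5 of 6 were below the lowest littermate, with heterozygous congenic 2 the exception. Of the homozygous mice 7 of 8 were below the lowest control, and homozygous congenic 1 had the same value as B6 control 5, so the groups met at 1 array in each batch.

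The group means of Prkag1 (log2, ± SD) were 10.25 ± 0.027 for the 6 littermates, 10.25 ± 0.027 for the 8 B6 controls, 10.18 ± 0.033 for the 8 homozygous mice and 10.15 ± 0.059 for the 6 heterozygous mice. Both B6 groups stood at one level, in values whose 2 batches the authors had aligned with ComBat. Heterozygous mice were lower than littermates by 6.45% (log2 difference -0.10, SE 0.0293) and homozygous mice lower than controls by 4.84% (log2 difference -0.07, SE 0.0254). No larger effect of 2 A/J copies than of 1 was detected: the homozygous effect minus the heterozygous effect was 0.02 (SE 0.039, 95% interval -0.055 to 0.104, limma adjusted p = 0.999). In pooled tissue, a smaller share of the cells that express a gene and less of its RNA per cell cannot be told apart.

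Prkag2 encodes gamma 2, a subunit known for human variants that cause a heart disease with glycogen storage. Its lowest, median and highest values were 9.66, 9.83 and 9.99 in littermates, 9.78, 9.83 and 10.01 in heterozygous mice, 9.57, 9.86 and 9.96 in B6 controls and 9.59, 9.83 and 9.96 in homozygous mice. The 4 groups covered nearly the same range, with 7 of 14 carriers below the B6 mean of their batch. The carriers differed from B6 by 0.00 (log2, SE 0.041, limma adjusted p = 0.997) with B6 control 1, and by -0.02 (SE 0.037, limma adjusted p = 0.954) without it.

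Prkag3 encodes gamma 3, a subunit found mainly in skeletal muscle. It had lowest, median and highest values of 6.93, 6.96 and 7.00 in littermates, 6.86, 6.92 and 7.12 in heterozygous mice, 6.87, 6.98 and 7.08 in B6 controls and 6.86, 6.93 and 7.07 in homozygous mice. The groups overlapped in part: 3 of 6 heterozygous mice were below the lowest littermate, and 2 of 8 homozygous mice below the lowest control. Heterozygous congenic 5, at 7.12, was above every littermate. Whether the Prkag3 signal lay above the background of the array was not tested, since the deposited values hold no detection call. The mean of 10 skeletal muscle genes stayed between 6.98 and 7.14 on all 28 arrays. The carriers differed from B6 by -0.02 (SE 0.029, limma adjusted p = 0.975), with 11 of 14 below the B6 mean of their batch.

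Called here means an adjusted p under 0.05 in limma with Benjamini-Hochberg adjustment over all 19938 genes. By this rule 0 of 7 members were called for carriers against B6, against 4 of all genes (0.0201%), and 0 for heterozygous mice against littermates, against 0 of all genes (0%). For homozygous mice against controls 0 members were called, against 1 of all genes (0.00502%), and for the difference of the 2 genotype effects 0 members, against 0 of all genes (0%). At an unadjusted p under 0.05 in limma, 1 member of 7 passed in each of the 3 genotype comparisons. It was Prkag1 each time, which was picked by its small p on these arrays, so its passing is part of the choice. None of the 6 other members passed in any of the 3. Of all genes 5.30% passed for carriers, 3.69% for heterozygous mice and 6.23% for homozygous mice. No member passed for the difference of the effects, where 1010 of all genes did. For the 6 members other than Prkag1 the 95% limits together reached from -0.126 to 0.098 for carriers, from -0.203 to 0.157 for heterozygous mice and from -0.145 to 0.148 for homozygous mice, so changes beyond these limits lie outside the interval of each of the 6.

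**Figure D2:**
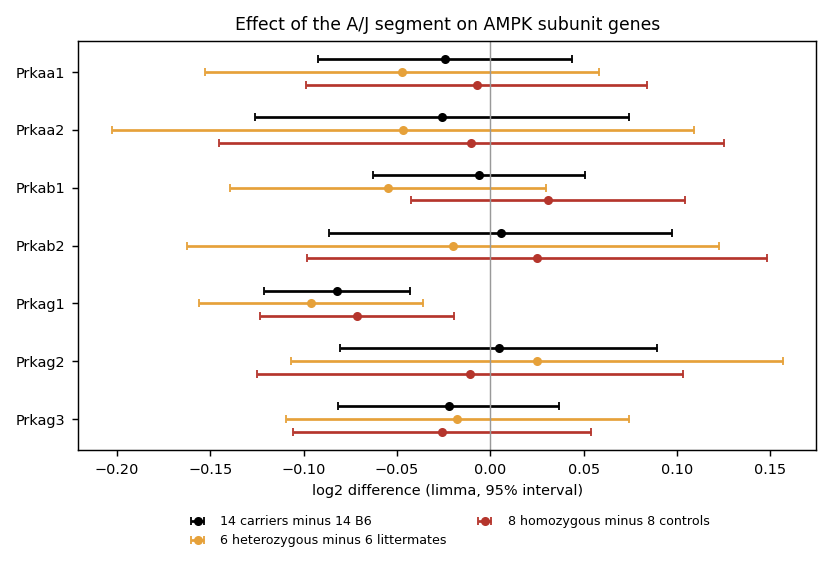
Log2 difference (x axis) of each AMPK subunit gene for 14 carriers minus 14 B6 mice (black), 6 heterozygous mice minus 6 littermates (orange) and 8 homozygous mice minus 8 controls (red), with points for the limma estimate and bars for its unadjusted 95% interval. Only the 3 bars of Prkag1, picked by its p on these arrays, lie wholly under 0 (estimates -0.08, -0.10 and -0.07). No member passed after adjustment over all genes.

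Prkag1 combined a difference of a few percent with one of the smallest spreads among all genes. A small spread was part of its choice, since the deposited p sets a difference against the gene's own spread, so the spread too is a description. Its SD within groups, after group means and sex were removed, was 0.0373, and 10 of the 19938 genes had a smaller one. The median SD over all genes was 0.103, and the other members had SDs of 0.0875 (Prkaa1), 0.137 (Prkaa2), 0.0662 (Prkab1), 0.124 (Prkab2), 0.114 (Prkag2) and 0.0739 (Prkag3).

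Whether Prkag1 counts as called turned on how that spread was treated. With limma, which draws each gene's variance toward a value common to all genes, its SD for the test rose from 0.0371 to 0.0503 (the common value is 0.0968), its adjusted p for carriers against B6 was 0.352, and it stood at rank 9 by p. With the methods' t-test of 14 against 14 arrays, which uses each gene's own variance and no covariates, its SE was 0.0141 and its adjusted p 0.0128. The deposited p by which Prkag1 is taken to have been picked came from such a t-test, so its small p here follows from that choice. That test called 6 of all genes (0.0301%), namely Cuedc1, Tob1, Brip1os, Mrpl27, Tubd1 and Prkag1. Of these 5 are on chromosome 11, and Prkag1 is the 1 that is not. With batch and sex as terms and no drawing of the variance toward the common value, the adjusted p was 0.0190, while limma with a variance trend gave 0.247 and limma's robust fit gave 0.587. The estimate itself was near -0.08 in all of these.

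**Figure D3:**
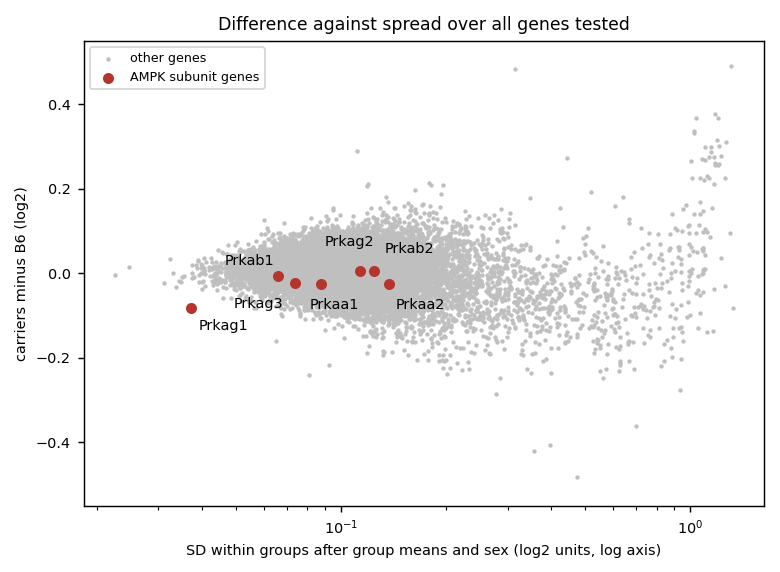
Log2 difference of 14 carriers minus 14 B6 mice (y axis) against the SD within groups after group means and sex (x axis, log scale) for all 19938 genes in grey and the 7 AMPK subunit genes in red. Prkag1 sits at the far left, at an SD of 0.0373 and a difference of -0.08, and the other members lie within the bulk of the cloud at differences between -0.03 and 0.01.

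The Prkag1 difference was also computed with single features of the data changed. These fits reuse the arrays from which Prkag1 was picked, so they describe the difference and do not test it anew. The difference was -0.10 in batch 1 alone and -0.07 in batch 2 alone, and leaving out each array in turn moved it between -0.0872 and -0.0750. Without B6 control 1 it was -0.08 (SE 0.0194). With age as a term it was -0.08, and in that limma fit its adjusted p was 0.803. In batch 2 every homozygous mouse was younger than every control, so the term cannot separate age from genotype there. The genes nearest to Prkag1 by RefSeq order along chromosome 15, picked by position after these values were known, were Wnt1, Ddn and B130046B21Rik on one side and Kmt2d, Rhebl1 and Dhh on the other. None of these 6 was called by limma for carriers, and their differences ran from -0.03 for Wnt1 to 0.09 for B130046B21Rik (SE 0.039, limma adjusted p = 0.899).

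Sex was compared in the same limma fit as the genotypes. The choice of Prkag1 bears on this comparison too, since the spread behind its deposited p includes any sex difference. Males and females differed by 0.02 in Prkag1 (SE 0.019, limma adjusted p = 0.883), and by -0.04 (Prkaa2) to 0.04 (Prkaa1) over the 7 members. By limma 0 members were called, against 11 of all genes (0.0552%), and 0 had an unadjusted p under 0.05, against 1463 of all genes. The 3 heterozygous females had a Prkag1 mean of 10.11 ± 0.052 (SD) and the 3 heterozygous males of 10.19 ± 0.039, while females and males had means of 10.25 and 10.25 in littermates, 10.25 and 10.25 in controls, and 10.18 and 10.18 in homozygous mice. The effect of the segment in males minus that in females was 0.03 for Prkag1 (SE 0.038, limma adjusted p = 0.962). Over the members it ran from -0.16 for Prkaa2 (SE 0.096) to 0.08 for Prkag3 (SE 0.056). By limma 0 members were called for it, against 0 of all genes (0%), and 0 had an unadjusted p under 0.05, against 960 of all genes. For this effect by sex 5 of 5 cortical excitatory neuron genes were lower (median -0.32) and 18 of 18 hepatocyte genes higher (median 0.83). None of these marker genes was called by limma. Whether the make-up of the punches bears on the values of the members was not tested.

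B6 control 1, the array with the highest liver signal, was also the lowest control for 3 members. Prkaa1 was 9.50 there against 9.73 to 9.90 in the other 7 controls, Prkab2 8.79 against 9.14 to 9.41, and Prkag2 9.57 against 9.76 to 9.96. The other 4 members lay within the range of the other controls, with Prkag1 at 10.26 against 10.22 to 10.30. The spiny neuron mean was 10.94 in this array against 11.35 to 11.56 in the other controls, the mean of 5 oligodendrocyte genes 10.85 against 11.40 to 11.68, and the hepatocyte mean 11.19 against 7.01 to 10.24. This array was also below the other controls for microglia genes (8.33 against 8.41 to 8.49). It was above them for thalamic (7.96 against 7.78 to 7.89), endothelial (8.41 against 8.24 to 8.37) and blood genes (7.58 against 7.11 to 7.31). Its means of cortical, astrocyte and skeletal muscle genes lay within their range. Among the other arrays with high hepatocyte means, B6 control 3, at 10.24, was the lowest of the other 7 controls for Prkab2 (9.14) and Prkaa1 (9.73) and had Prkag2 at 9.84. Homozygous congenic 7, at 9.79, had the lowest Prkag2 of its group (9.59), with Prkab2 at 9.27 and Prkaa1 at 9.73. Homozygous congenic 1, at 10.06, had Prkab2 at 9.30, Prkaa1 at 9.80 and Prkag2 at 9.79, none of them the lowest of its group. The part of liver RNA in these values was not tested.

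**Figure D4:**
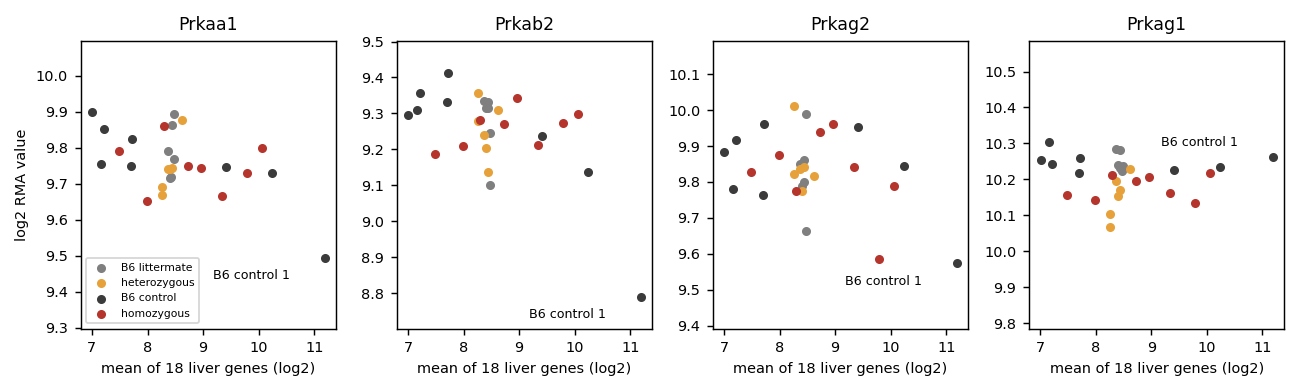
Log2 RMA value of Prkaa1, Prkab2, Prkag2 and Prkag1 (y axes, equal spans) against the mean log2 value of 18 hepatocyte genes (x axis) on each of the 28 arrays, coloured by group. B6 control 1, at a hepatocyte mean of 11.19, has the lowest Prkaa1 (9.50), Prkab2 (8.79) and Prkag2 (9.57) values, and its Prkag1 value (10.26) is among those of the other controls. The values follow ComBat, so hepatocyte means cannot be compared between batches.

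The members showed little shared movement from mouse to mouse. Over the 28 arrays, after group means and sex were removed, the 21 pairs had Pearson correlations between -0.23 and 0.59 with a median of 0.08. None of the 21 passed a permutation test within groups after Benjamini-Hochberg adjustment over the 21. The highest was Prkab2 with Prkag2 (r = 0.59, permutation p = 0.0061, adjusted 0.128; rho = 0.29, permutation p = 0.157, adjusted 0.432). It was 0.61 in batch 1 and 0.58 in batch 2, but 0.24 without the 2 farthest arrays and 0.37 without B6 control 1, so the relation rested in part on those arrays. By rank the closest pair was Prkaa1 with Prkag1 (rho = 0.54, permutation p = 0.00404, adjusted 0.0848; r = 0.32, permutation p = 0.0761, adjusted 0.320). Its r was 0.55 in batch 1 and 0.17 in batch 2, and 0.49 without B6 control 1.

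As a description, the genes whose residuals were most like those of Prkag1 over 28 arrays were Sco1 (r = 0.67), Mdh1 (0.62), Nbr1 (0.60), Mrps22 (0.57) and Rnase13 (0.57). Over 27 arrays without B6 control 1 the order became Nbr1 (r = 0.72), Ube2d1 (0.72), Zfp292 (0.72), Sco1 (0.66) and Dynlrb1 (0.65), so Nbr1 and Sco1 were on both lists. For Prkab2 the leading pair was Tnrc6c (r = 0.91) and Scn2b (0.90) over 28 arrays and Rgs17 (0.76) and Tnrc6c (0.75) over 27. For Prkaa1 it was Arf2 (0.83) and Rhob (0.82), then Dynlrb1 (0.73) and Dennd4c (0.73). Prkaa2 was closest to Suds3 and Fhod3 (both 0.84), then to Fhod3 (0.88) and Ptprk (0.87), and Prkag2 to Rnf20 (0.85) and Mrpl19 (0.84), then to Srp68 (0.80) and Rnf20 (0.79). Prkab1 kept Serpinb1a (0.78, then 0.79) and Polr2b (0.70, then 0.77), and Prkag3 kept Mfsd6l (0.82, then 0.83) and Zbtb32 (0.81, then 0.83). All of these genes share arrays, array quality and tissue sampling with the member. Each list holds the highest correlations found in a search over all genes, so a high r is in part a product of that search. No test was run on these lists. Without B6 control 1 Mdh1 stood at rank 12 for Prkag1, Mrps22 at 29 and Rnase13 at 38. Among the genes listed for Prkag1, Sco1, Mdh1 and Nbr1 are on chromosome 11, the chromosome of the A/J segment.

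The genes that act on AMPK or are acted on by it were read from lists chosen by role. Among those named below, Strada, Ppm1e, Flcn, Fnip1, Acaca and Rptor are on chromosome 11, the chromosome of the A/J segment. Whether each lies within the segment, and whether local A/J alleles bear on its value, was not tested. Of 83 genes, 79 were measured here, and by limma 0 were called for carriers, 0 for heterozygous mice and 0 for homozygous mice. For carriers 54 of the 79 had a higher mean and 25 a lower one, with a median difference of 0.01, against 59.2% of all genes higher and a median of 0.01. The medians of the batches had opposite signs. In heterozygous mice 32 were higher and 47 lower (median -0.01), against 51.6% of all genes higher and a median of 0.002. In homozygous mice 56 were higher and 23 lower (median 0.03), against 61.5% of all genes higher and a median of 0.02. Without B6 control 1 the split for carriers was 41 higher and 38 lower, with a median of 0.002, against 55.8% of all genes higher and a median of 0.01. At an unadjusted p under 0.05 in limma, 3 of 79 (3.80%) passed for carriers, 3 (3.80%) for heterozygous mice and 4 (5.06%) for homozygous mice, shares close to or below those of all genes.

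Among upstream kinases and their partners 4 of 8 were higher and 4 lower in carriers, and none was called. The median was 0.01 with all arrays and -0.01 without B6 control 1. Stk11 (LKB1, the main kinase that activates AMPK) differed by -0.02 (SE 0.023, limma adjusted p = 0.970), its partners Cab39 by -0.02 and Strada by -0.02, Camkk2 (the calcium-dependent activator in neurons) by 0.06 (SE 0.046) and Map3k7 (TAK1) by 0.05 (SE 0.033). Without B6 control 1 Cab39 differed by -0.04, Strada by -0.04 and Camkk2 by 0.03.

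Of the 14 phosphatases and binding proteins that restrain or modulate AMPK, 12 were higher and 2 lower in carriers, beside the 59.2% of all genes that were higher, with a median of 0.02 and none called. The split was 5 higher and 9 lower in heterozygous mice (median -0.02), beside 51.6% of all genes higher. It was 12 higher and 2 lower in homozygous mice (median 0.04), beside 61.5% of all genes higher. In carriers without B6 control 1 it was 10 higher and 4 lower (median 0.01). The phosphatase Ppm1e differed by -0.04, folliculin (Flcn) by 0.02 and its partners Fnip1 by 0.06 and Fnip2 by 0.01. Fnip1 differed by -0.004 in heterozygous mice and by 0.10 in homozygous mice (SE 0.036, limma adjusted p = 0.617), or by 0.07 without B6 control 1. The smallest adjusted p among all 79 genes in the genotype comparisons was that of the phosphatase Ppm1f in homozygous mice (0.14, limma adjusted p = 0.356), a gene named here after its value was seen.

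Of 26 proteins that AMPK phosphorylates, 17 were higher and 9 lower in carriers, beside the 59.2% of all genes that were higher. Their median was 0.01 and none was called. Without B6 control 1 they were 14 higher and 12 lower (median 0.002). The acetyl-CoA carboxylases, which make malonyl-CoA for fatty acid synthesis, had their highest control value in B6 control 1. Acaca was at 10.06 there against a control median of 9.27, and Acacb at 8.26 against 7.39. In carriers Acaca differed by -0.01 (SE 0.061) with that array and by 0.04 (SE 0.036) without it, and Acacb by -0.08 (SE 0.070) with it and by -0.02 (SE 0.045) without it. In homozygous mice both turned sign without it, Acaca from -0.06 to 0.04 and Acacb from -0.08 to 0.02. Ulk1, which starts autophagy, differed by 0.003 in carriers, the mTORC1 component Rptor by 0.002 (-0.01 without B6 control 1), its inhibitor Tsc2 by 0.01 (-0.002 without it), Tbc1d1 by 0.02 and the CREB coactivator Crtc1 by -0.01 (-0.03 without it). Ppargc1a, a coactivator of mitochondrial genes, differed by -0.06 in carriers and by -0.16 in heterozygous mice (SE 0.072, limma adjusted p = 1.00). Eef2k, the kinase that slows peptide elongation, differed by 0.08 in carriers (SE 0.037, limma adjusted p = 0.928) and by 0.12 in homozygous mice (SE 0.047, limma adjusted p = 0.696), or by 0.05 and 0.08 without B6 control 1.

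Of 13 AMPK-related kinases 10 were higher and 3 lower in carriers, beside the 59.2% of all genes that were higher. Their median was 0.03 and none was called, and 8 were higher and 5 lower without B6 control 1 (median 0.01). Brsk1, a kinase of neuronal polarity, differed by 0.04 (0.01 without that array), Nuak1 by 0.08 (0.06 without it) and Sik1 by -0.07.

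Of 18 enzymes of adenine nucleotide and phosphocreatine turnover 11 were higher and 7 lower in carriers, beside the 59.2% of all genes that were higher. Their median was 0.01 and none was called. The medians of the batches had opposite signs. In heterozygous mice 3 were higher and 15 lower (median -0.02), beside 51.6% of all genes higher. In homozygous mice 12 were higher and 6 lower (median 0.03), beside 61.5% of all genes higher. Without B6 control 1 the split for carriers was 5 higher and 13 lower (median -0.01). The adenylate kinases Ak1 and Ak5, which make the AMP that AMPK senses, differed by 0.02 and 0.01 in carriers, and by -0.01 and -0.01 without B6 control 1. The AMP deaminase Ampd2 differed by 0.02, and by less than 0.01 without that array. Adenosine kinase (Adk), at 11.00 in B6 control 1 against a control median of 9.34, differed by -0.14 in carriers (SE 0.120, limma adjusted p = 0.968) and by -0.03 (SE 0.063) without that array. In homozygous mice Adk went from -0.13 with it to 0.07 without it.

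Between the sexes 10 of the 79 genes (12.7%) had an unadjusted p under 0.05, against 7.34% of all genes, and 0 were called by limma (smallest adjusted p = 0.483). In the same comparison 12 of 12 spiny neuron genes were higher in males (median 0.13), 9 of them with an unadjusted p under 0.05. Of the cortical excitatory neuron genes 5 of 5 were lower in males (median -0.13). Whether the make-up of the punches bears on the count of pathway genes was not tested. For the effect of the segment by sex 4 of 79 (5.06%) had such a p, against 4.81% of all genes, and 0 were called.

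**Figure D5:**
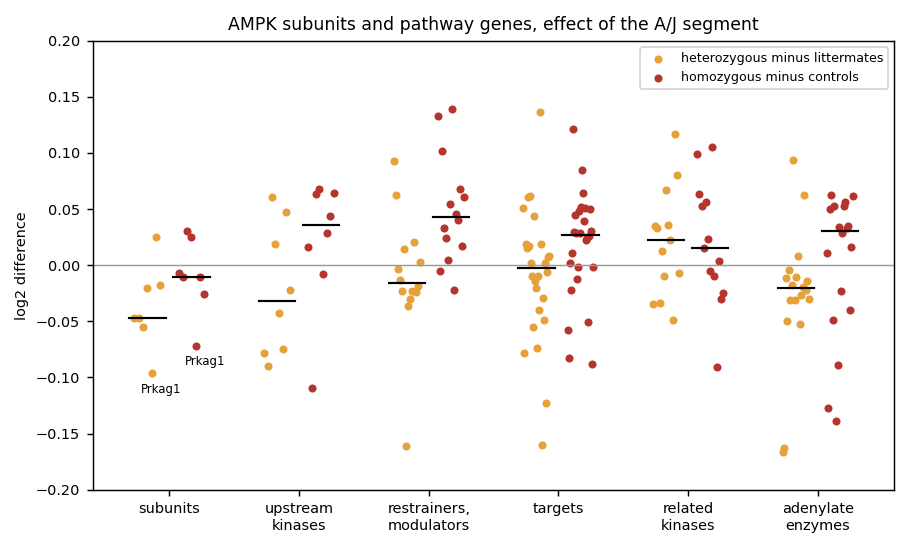
Log2 difference (y axis) of the 7 AMPK subunit genes and of the 79 pathway genes by list, for 6 heterozygous mice minus 6 littermates (orange) and 8 homozygous mice minus 8 controls (red), with a black line at the median of each list. Prkag1 is the lowest subunit gene in both comparisons, at -0.10 and -0.07, and every list straddles 0.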

How the data were processed

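Striatal RNA of 28 mice was hybridised to Mouse Gene 1.0 ST arrays, per the labels. The log2 values are the authors' RMA summaries from Expression Console, a step named in the submitters' processing notes. Per the deposited notes, the authors left out probes over coding SNPs between 84 and 96 Mb (build 37) and then removed the effect of the 2 batches with ComBat. No AMPK subunit cluster is on the authors' list of masked probesets by its ID. The p-values in the deposited comparison come from the authors' t-tests, per the deposited notes. Each of these steps could change a small difference, since RMA sets the arrays to one distribution and ComBat sets batch means and variances of a gene to each other.

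The values were used as deposited. Of 35556 clusters, 21789 have 1 gene symbol, 1621 several and 12146 none; per gene the single-symbol cluster with the highest mean was kept, which left 19938 genes. Each comparison was a 2-sided test in limma 3.58.1 (R 4.3.3; eBayes on lmFit) with Benjamini-Hochberg adjustment over all genes, called at 0.05. The fit for carriers against B6 held batch and sex, the fit for the other comparisons 4 group means and sex, and the fit for the effect by sex also the product of batch and sex. Correlations used 100000 permutations. The tests were tried on simulated data. The labels number the mice, and p-values measure the spread between mice. The number of arrays limits the precision.

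Members, gene lists and settings were chosen with earlier results of these data known. The 7 subunits are always named, pathway genes were named by role, and genes like a member by correlation. Alternatives changed the covariates, the replicate block, normalization, the filter on dim genes, the clusters, array weights, variance moderation (added after seeing the data), batches, the coding of alleles, the test and the arrays left in. Of the listed pathway genes, 4 were not analysed here.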

Additional observations from a re-analysis of the deposited data

Results flagged for a closer look

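Of 28 groups of values (7 subunit genes in 4 groups), 5 held a value far from the others of its group by Dixon's test at its 95% critical value; chance flags about 1 in 20 groups. Heterozygous congenic 2 had the highest Prkaa1 of its group, 9.88, with the nearest value at 9.74, and it was also the heterozygous mouse with the highest Prkag1. Heterozygous congenic 3 had the lowest Prkaa2 of its group, 9.06, with the nearest at 9.25, and also the lowest mean of cortical genes (9.03). Heterozygous congenic 1 had the highest Prkag2, 10.01, with the nearest at 9.84. B6 control 1 stood apart for Prkaa1, at 9.50 with the nearest at 9.73, and for Prkab2, at 8.79 with the nearest at 9.14. No group of Prkag1, Prkab1 or Prkag3 held such a value.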

How the results depend on the processing

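Of 1064 values recomputed, 1014 kept their direction and their side of the threshold, and 46 turned sign, all of them differences that were not called; the other 4 are the Prkag1 call and its count named next. The number of members called for carriers was 1 with the methods' t-test and 1 with no moderation of the variance, in both cases Prkag1, and 0 under every other setting tried, each left-out array included. The methods' t-test and no moderation called 6 of all genes and array weights 6, against 4 in the reported fit, and over all settings the calls ranged from 0 to 7 for carriers, from 1 to 4 for homozygous mice and from 4 to 13 for sex. Prkag1 was lower under every setting, but each setting used arrays from which it was picked, and its t-test call follows from that choice. The labels do not say whether same-numbered mice were paired, though in batch 2 they were of the same sex. After group means and sex were removed, same-numbered mice had correlations from -0.173 to 0.106 in batch 1 and from -0.653 to 0.649 in batch 2. In these batches 1 of 6 and 1 of 8 correlated best with their own number. Such correlations cannot settle whether the mice were paired. With the replicate block the number of members called was 0, Prkag1 differed by -0.08 (limma adjusted p = 0.684), and the calls among all genes were 1 for carriers, 3 for homozygous mice and 4 for sex.

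The sign turned for Prkab1 in carriers with age (0.00728), array weights (0.0136), batch 2 alone (0.0306) and the number of A/J alleles (0.00424), for Prkab2 in carriers with age (-0.00483), array weights (-0.0382) and batch 1 alone (-0.0200), and for Prkag2 in carriers with array weights (-0.0216), batch 2 alone (-0.0109) and alleles (-0.000684). In homozygous mice it turned for Prkag2 with age (0.00210), and with array weights for Prkaa2 (0.0147) and Prkab2 (-0.0495). Leaving out each array in turn gave, for carriers, -0.0158 to 0.00968 (Prkab1), -0.0302 to 0.0181 (Prkab2) and -0.0174 to 0.0237 (Prkag2); for heterozygous mice, -0.0603 to 0.000351 (Prkab2), -0.00649 to 0.0567 (Prkag2) and -0.0545 to 5.06e-05 (Prkag3); and for homozygous mice, -0.0430 to 0.0107 (Prkaa1), -0.0353 to 0.0345 (Prkaa2), -0.0384 to 0.0489 (Prkab2) and -0.0515 to 0.0228 (Prkag2). The lowest values for Prkab2 and Prkag2 in carriers and for Prkaa1, Prkab2 and Prkag2 in homozygous mice were those without B6 control 1. The cause was not tested. With genes of mean under 7 left out Prkag3 was not tested. In batch 2 genotype and age cannot be told apart.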
